A study of Homo sapiens with 2 samples.

Results

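Clusters in 5' untranslated regions (5' UTRs) are described here for the zinc finger proteins ZC3H7A and ZC3H7B. They come from PAR-CLIP, a photoactivatable-ribonucleoside form of crosslinking and immunoprecipitation, in which a protein is crosslinked to 4-thiouridine in RNA and the crosslinks are read as T-to-C conversions. A cluster is a group of overlapping reads with such conversions. The genes were chosen by the deposited number of clusters in the 5' UTR, at least 1 in either library, leaving out entries of repeats, tRNAs and other small RNA classes. This gave 1621 genes of 10151 listed in either library, with 1869 of 51817 clusters for ZC3H7A and 770 of 99812 for ZC3H7B. The number of 5' UTR clusters is therefore a description of the genes chosen and was not tested.

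Both libraries came from HEK293 cells, a human embryonic kidney line, that overexpressed the Flag/HA-tagged protein after 24 h with 1 µg/mL doxycycline. Cells of both groups had been given 100 µM 4-thiouridine for 16 h and 365 nm light, and crosslinked RNA was cut with RNase T1. The labels name the inducible Flp-In T-REx line beside HEK293, and the tables hold clusters and not expression, so markers of the cell line were not checked. There was 1 library for each protein, no replicate and no control library, so differences below are between a pair of libraries and carry no test. Given a series about codon-dependent control of mRNA translation and stability, the question here is how often each protein was recovered on the part of the transcript that lies before the coding sequence.

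The 5' UTR is the stretch that the small ribosomal subunit enters at the cap and scans for a start codon. Upstream open reading frames, stable structures and bound proteins in it can slow or select initiation, and a run of pyrimidines at the cap places ribosomal protein and elongation factor transcripts under growth control. 5' UTRs are short and rich in G and C beside 3' UTRs, so they offer few uridines for crosslinking with 4-thiouridine. The deposited tables give the number of clusters by region and no positions, so no cluster sequence is shown.

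The ZC3H7A library held 3780104 reads on 8209 genes, made of 300394 distinct reads, and the ZC3H7B library held 2409541 reads on 9163 genes, made of 1213039 distinct reads. A distinct read was thus counted 12.6 times on average for ZC3H7A and 1.99 times for ZC3H7B. Whether molecular identifiers were used was not given, so reads may include PCR copies. All intervals below (exact Clopper-Pearson, 95%) cover counting error only. Those of read ratios treat each copy of a read as an independent count. The transgenes themselves hardly entered this set. ZC3H7A had no 5' UTR cluster in either library, among 28 clusters in its own, and ZC3H7B had 2 of 35 in its own library and 0 of 21 in the ZC3H7A library.

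ZC3H7A was recovered on 5' UTRs more often than ZC3H7B, both by clusters and by genes. The 5' UTR took 3.61% (3.45 to 3.77%) of the clusters for ZC3H7A and 0.771% (0.718 to 0.828%) for ZC3H7B, a 4.68-fold difference. The ZC3H7B library had 1.93-fold more clusters in all, yet the ZC3H7A library had 2.43-fold more clusters in 5' UTRs. This lean was not confined to the 5' UTR. Start codons took 1.43% of clusters for ZC3H7A and 0.645% for ZC3H7B, and coding sequence 42.7% and 29.6%. The 3' UTR went the other way, with 39.8% and 55.8%. At least 1 such cluster was found on 1390 of 8209 listed genes for ZC3H7A, 16.9% (16.1 to 17.8%), and on 502 of 9163 for ZC3H7B, 5.48% (5.02 to 5.96%). Of the 1615 members matched to RefSeq genes, 1610 are annotated as protein coding, against 7553 of 7983 other listed genes matched (94.6%). A 5' UTR presupposes a coding sequence, so this follows from the choice of genes.

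Most members had a single 5' UTR cluster. In the ZC3H7A library 1084 genes had 1, 219 had 2, 49 had 3 and 18 had 4, and the highest number was 12. In the ZC3H7B library 385 genes had 1, 68 had 2, 17 had 3 and 13 had 4, and the highest number was 18. At least 2 were found on 306 genes (22.0% of the members) for ZC3H7A and on 117 (23.3%) for ZC3H7B. The 12 genes with the most took 4.71% of all 5' UTR clusters for ZC3H7A and 14.2% for ZC3H7B, whose set of genes is smaller. Genes with 1 such cluster lie just inside the limit of membership and genes with 0 just outside it.

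**Figure D1:**
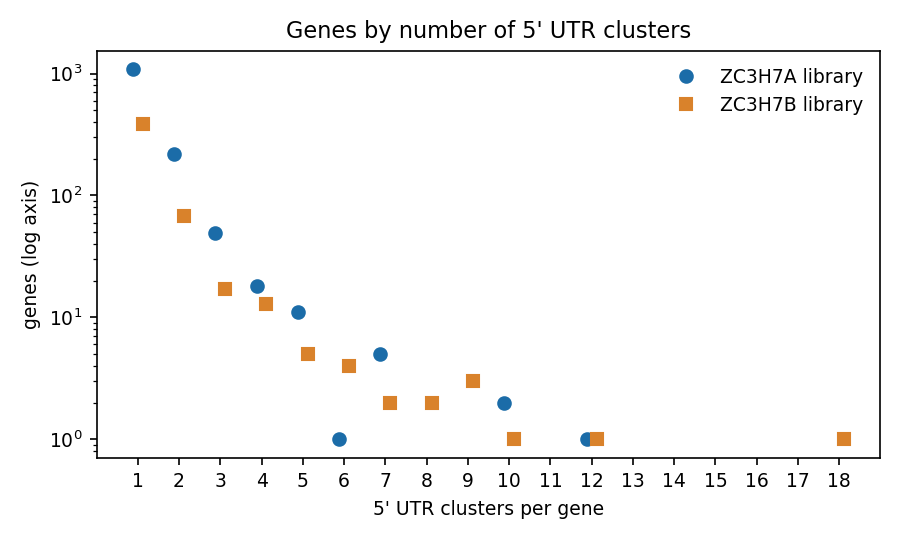
Number of genes (vertical, log axis) by the number of 5' UTR clusters per gene (horizontal) in the ZC3H7A library (circles) and the ZC3H7B library (squares), shifted slightly sideways to keep them apart. ZC3H7A has more genes at every number from 1 to 5, with 1084 against 385 at 1, whereas genes with 8 or 9 clusters occur for ZC3H7B alone.

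ZC3H11A, a CCCH zinc finger protein of messenger RNA export, had the most 5' UTR clusters of any gene over both libraries. It had 10 among 21 clusters for ZC3H7A and 18 among 40 for ZC3H7B, so a similar part of its clusters lay in the 5' UTR in both. ZBED6, a transcription factor gene derived from a DNA transposon, spans the same locus as ZC3H11A in the RefSeq annotation and had 7 of 24 and 6 of 32 clusters in its 5' UTR. Since both genes cover the same sequence, reads cannot be assigned between their 5' UTRs with certainty, and these are not independent examples.

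C6orf62 ranked next, with 12 5' UTR clusters in each library, among 26 for ZC3H7A and 31 for ZC3H7B. It also had 1 and 3 clusters at the start codon. C6orf62 held 3423 reads for ZC3H7A and 2200 for ZC3H7B, which gave a log2 ratio of -0.14 (-0.22 to -0.07) after scaling, so the libraries were close in reads as well. ZNF146, a zinc finger gene that lies within the span of ZNF565, had 10 of 30 and 6 of 24. GGPS1, which makes the geranylgeranyl diphosphate used for protein prenylation, had 7 of 10 and 9 of 28. GPBP1L1 had 5 of 15 and 10 of 31. These 4 genes carried many 5' UTR clusters with either protein. C6orf62 partly overlaps ACOT13 and GGPS1 partly overlaps ARID4B in the RefSeq annotation, so reads there are uncertain too.

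A further set had repeated 5' UTR clusters with both proteins at lower numbers. CENPV, a centromere protein gene, had 5 of 9 clusters for ZC3H7A and 7 of 14 for ZC3H7B. ZNF571, which lies within the span of ZNF540, had 5 of 21 and 5 of 19. PTP4A1 and PTP4A2, which encode related tyrosine phosphatases, had 4 in each library, among 23 and 36 clusters for PTP4A1 and 19 and 28 for PTP4A2. ZNF664 had 5 of 31 and 4 of 43. PTP4A1 partly overlaps LGSN and ZNF664 lies within the span of ZNF664-RFLNA. EXTL3, a glycosyltransferase of heparan sulfate synthesis, had 3 of 22 and 5 of 48, and AGPAT6, a glycerol-3-phosphate acyltransferase, had 3 of 5 and 6 of 17.

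Other genes with many 5' UTR clusters for ZC3H7A had few or none for ZC3H7B. U2AF2, the large subunit of the splicing factor that binds the polypyrimidine tract, had 7 of 22 clusters there and 0 of 8 in the ZC3H7B library. JUN, a subunit of the AP-1 transcription factor, had 7 of 15 and 1 of 10. TAF7, a subunit of TFIID, had 7 of 22 and 2 of 16. SOX4, a transcription factor of the SOX family, had 6 of 24 and 1 of 20, with 19 of the latter in the 3' UTR. SLC16A1, a monocarboxylate transporter, had 5 of 36 and 1 of 47. PPP1R15B, a regulatory subunit that directs a phosphatase to the initiation factor eIF2 alpha, had 5 of 44 and 0 of 38.

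The reads of these genes did not all follow the same order. U2AF2 held 1483 reads for ZC3H7A and 82 for ZC3H7B, a log2 ratio of -3.68 (-4.02 to -3.36), so its missing 5' UTR clusters went with few reads in all. TAF7 held 4674 and 642 reads (-2.37, -2.49 to -2.25). SOX4, with 2268 and 2426 reads, and SLC16A1, with 6189 and 4778, had log2 ratios of 0.59 and 0.12, so both were well covered for ZC3H7B with a single 5' UTR cluster. PPP1R15B, with 5655 and 3390 reads, stood at -0.24 and had 15 coding and 21 3' UTR clusters in the ZC3H7B library.

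Fewer genes leaned the other way. DNAJC9, a co-chaperone of histones that partly overlaps FAM149B1, had 1 of 4 clusters in the 5' UTR for ZC3H7A and 9 of 22 for ZC3H7B. TULP4, of the tubby-like family, had 2 of 5 and 8 of 47. SOGA3 had 0 of 3 and 8 of 38, and RNF43, a ubiquitin ligase that removes Wnt receptors, had 0 of 1 and 7 of 14. IGIP had 9 of 10 clusters in the 5' UTR for ZC3H7B, and for ZC3H7A it had no called cluster anywhere. Reads for ZC3H7A were few on these genes. DNAJC9 held 130 and TULP4 176. RNF43 held 10 reads there made of 2 distinct reads, against 126 for ZC3H7B, and SOGA3 held 47 against 454. With 1 and 3 clusters for ZC3H7A, a 0 for RNF43 and SOGA3 says little about the 5' UTR.

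**Figure D2:**
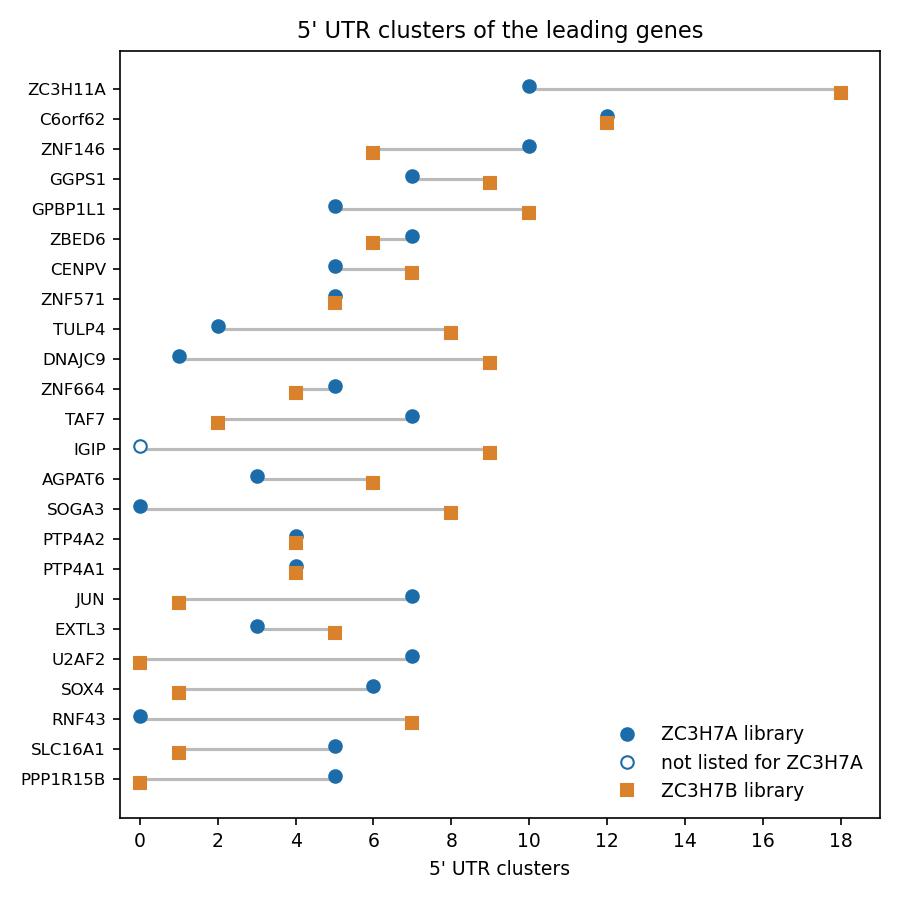
5' UTR clusters (horizontal) in the ZC3H7A library (circles) and the ZC3H7B library (squares) for the genes with the most in either library or in both. C6orf62 has 12 in each, ZC3H11A 10 and 18, and the open circle marks IGIP, which is not listed for ZC3H7A.

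Of the 375 genes with at least 2 5' UTR clusters in either library, 48 reached 2 in both. For ZC3H7A, 189 of the 306 had none in the ZC3H7B library and 69 had 1. For ZC3H7B, 35 of the 117 had none in the ZC3H7A library and 34 had 1. The roles under which further genes are named below were assigned after their numbers were seen.

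With 5 clusters for ZC3H7A there were also SQLE, the squalene epoxidase of sterol synthesis, DR1, a repressor of TATA-dependent transcription, the corepressor TLE3, PNMA2 and C19orf48. Those with 4 included the adaptor proteins GRB2 and CRKL, the glutamine transporter SLC1A5, the deubiquitinase USP1, the poly(A)-binding protein PABPC4, the spliceosomal protein SNRPA, the KRAB corepressor TRIM28, the NEDD8-conjugating enzyme UBE2M, FEM1B, SPRTN, P2RY1, TXNDC12, ZFAND5, ZNF45 and ZNF263. With 3 there were signalling genes (SMAD4, STK11, LATS1, BAMBI, EFNB1, SLIT2, STC2 and DUSP16), ubiquitin ligase genes (SKP2, FEM1C, KLHL9, RBCK1 and RNF187) and RNA-related genes (YTHDF2, CHTOP, HNRNPF, PUS1 and PAF1). SCD, the stearoyl-CoA desaturase, also had 3, in both libraries.

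Among the genes with 2 for ZC3H7A, RNA-binding and translation genes included G3BP2, IGF2BP1, LSM1, MATR3, NCL, PTBP1, RBM39, SERBP1 and YTHDF3. Ubiquitin pathway genes included UBE2D2, UBE2D3, UBE2H, UBE3A, RLIM, RNF4, RNF10, RNF11, RNF167, TRIM11, FBXL4 and FBXO7. Genes of vesicles and transporters included ARF6, CLTC, RAB14, RHOB, STX16, SLC7A1, SLC30A5 and SLC38A2, and genes of cell division included CCNG1, DSN1, E2F2, GINS3, GMNN, MKI67 and NUF2. Mitochondrial genes included CYCS, NDUFA2, TIMM21, UQCRQ and VDAC2.

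For ZC3H7B, MBNL2, a regulator of alternative splicing, had 6, and CCNB1IP1 had 5. Those with 4 included PABPC1 and PABPC4, which bind poly(A) tails, the calcium pump ATP2B1, the nuclear receptor NR2F1, DCLRE1A, EFCAB14, PROSER1, PTRH2 and ZNF577. Those with 3 included the export receptor XPO1, the apoptosis inhibitor BIRC2, DUSP16, CHTOP, SCD, JTB and MKKS. With 2 there were kinase genes (CDK1, CSNK1A1, DYRK1A, GSK3B, MAPK6 and CDC42BPA), chromatin genes (HMGA1, KAT6A, PCGF5, RNF2, SETD5 and SMC2) and RNA-related genes (HNRNPA2B1, NCL, SNRNP70 and CDC5L).

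The sets of the libraries overlapped in 271 genes, which is 19.5% of the ZC3H7A set and 54.0% of the ZC3H7B set. Absence from the other table accounted for little of the rest, since 1303 of the 1390 ZC3H7A genes were listed for ZC3H7B and 476 of the 502 ZC3H7B genes were listed for ZC3H7A. The shared genes held 508 of the 5' UTR clusters of ZC3H7A (27.2%) and 479 of those of ZC3H7B (62.2%). Among them 80 had more for ZC3H7A, 49 more for ZC3H7B and 142 the same number.

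A gene with a 5' UTR cluster for ZC3H7A more often had one for ZC3H7B. Of genes listed in both tables, 271 of 1303 with such a cluster for ZC3H7A also had one for ZC3H7B (20.8%, 18.6 to 23.1%), against 205 of 5918 without (3.46%, 3.01 to 3.96%). The share was 15.3% (13.1 to 17.7%) for genes with 1 in the ZC3H7A library, 65 of 210 (24.8 to 37.7%) for genes with 2 and 59.8% (48.7 to 70.1%) for the 87 genes with 3 or more. These intervals do not overlap, but the median number of clusters for ZC3H7B also rose, from 13 to 17.5 and 20. Members had more clusters in all, with a median of 14 for ZC3H7B against 8, so the comparison was repeated among genes with like numbers. Among genes with 16 to 31 clusters for ZC3H7B the shares were 24.7% (20.5 to 29.3%) and 6.01% (4.74 to 7.50%). In that class genes with 1 and 2 for ZC3H7A stood at 19.4% (15.0 to 24.5%) and 26.9% (16.8 to 39.1%), whose intervals overlap. Genes with 3 or more stood at 66.7% (48.2 to 82.0%). With 32 or more clusters, 1 and 2 stood apart, at 33.3% (25.4 to 42.1%) and 61.7% (46.4 to 75.5%). There 3 or more, at 72.7% (49.8 to 89.3%), overlapped with 2. Both tables rest on the same gene models and the same cell line, and the part of 5' UTR length and RNA level in this overlap was not tested.

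Looked at from ZC3H7B, 56.9% (52.3 to 61.4%) of its members and 15.3% (14.4 to 16.2%) of the other genes had a 5' UTR cluster for ZC3H7A. Of the 47 genes listed in both tables with 3 or more for ZC3H7B, 41 had at least 1 for ZC3H7A (87.2%, 74.3 to 95.2%).

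Genes with more clusters were more likely to have one in the 5' UTR, in both libraries. For ZC3H7A the share of genes with a 5' UTR cluster was 4.05% among genes with 1 cluster, 19.2% with 4 to 7, 40.7% with 16 to 31 and 54.1% (45.7 to 62.4%) with 32 or more. For ZC3H7B these shares were 0.498%, 2.75%, 10.4% and 21.0% (17.9 to 24.5%). At each number of clusters the share was higher for ZC3H7A and the intervals did not overlap. Counted as a share of clusters for ZC3H7A, the 5' UTR took 4.05% on genes with 1 cluster, 4.45% with 2 to 7 and 2.15% with 32 or more, and for ZC3H7B it lay between 0.498% and 1.01% with no such order.

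**Figure D3:**
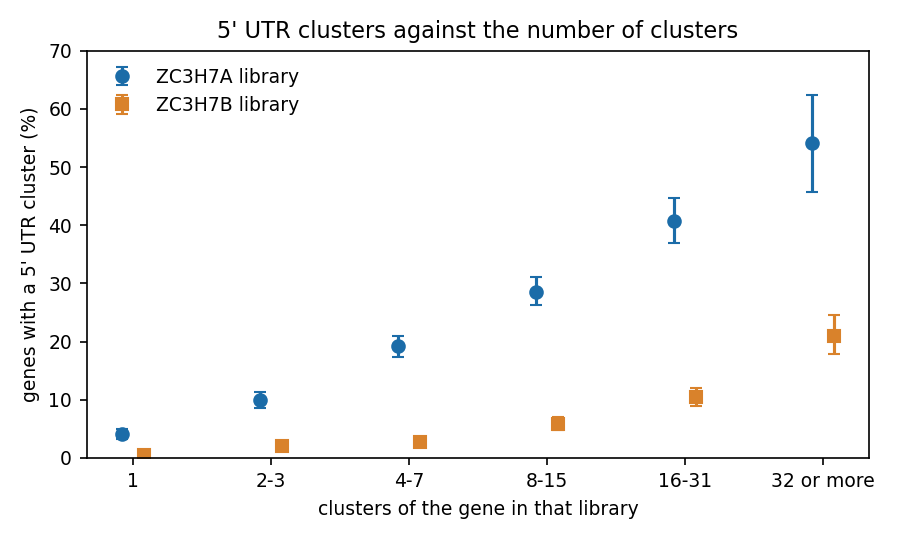
Share of genes with a 5' UTR cluster in percent (vertical) by the number of clusters of the gene in that library (horizontal), with exact 95% intervals as bars, for ZC3H7A (circles) and ZC3H7B (squares). ZC3H7A lies above ZC3H7B in each of the classes, from 4.05% against 0.498% at 1 cluster to 54.1% against 21.0% at 32 or more.

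Reads are summed over all clusters of a gene, so reads and conversion of a 5' UTR cluster can be read only from genes with 1 cluster. There were 84 such genes for ZC3H7A and 8 for ZC3H7B. A 5' UTR cluster of the ZC3H7A library held a median of 25.5 reads (23 to 32), made of a median of 3 distinct reads. Single clusters in coding sequence held 25 (24 to 27) and those in the 3' UTR 24 (23 to 26), so the regions did not differ beyond their intervals. On average 95.8% of the reads of a 5' UTR cluster had a T-to-C conversion, against 95.7% in the 3' UTR and 96.3% in coding sequence. In the ZC3H7B library the 8 clusters held a median of 8 reads (5 to 13) and 91.2% conversion, against 7 reads and 93.1% in coding sequence. A median of 3 distinct reads is shallow, and with 8 clusters the ZC3H7B values are imprecise.

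All clusters lay in the 5' UTR on 91 genes for ZC3H7A, 84 of them with 1 cluster, and on 11 genes for ZC3H7B, 8 of them with 1. UBE2S, a ubiquitin-conjugating enzyme of the anaphase-promoting complex, had the most reads among them for ZC3H7A, with 318 in 2 clusters, and was not listed for ZC3H7B. It partly overlaps RPL28, so these reads are uncertain. RPS20, a protein of the small ribosomal subunit, held 213 reads in 1 cluster, and in the ZC3H7B library 25 reads in 2 clusters, 1 of them in the 5' UTR. ANK3, an ankyrin, held 102 reads in 1 cluster and also had 1 of 2 clusters in the 5' UTR for ZC3H7B. After them came USMG5, a subunit of ATP synthase that partly overlaps TAF5 (92 reads), the sulfotransferase HS3ST3A1 (90 reads), OSBPL1A (84 reads in 2 clusters) and RNF26 (82 reads). HS3ST3A1 was bound elsewhere by ZC3H7B, with 5 3' UTR clusters and none in the 5' UTR.

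For ZC3H7B the leading gene of this kind was DDX6, a helicase of translational repression and decapping. Its 3 clusters held 124 reads and all lay in the 5' UTR, and for ZC3H7A 3 of its 4 clusters did, with 162 reads. RAB34 had a single cluster in each library, both in the 5' UTR, with 14 and 13 reads. Those next in reads held 8 to 13. They were TIGD1, MRPL53, the histone gene HIST1H2BF, the immediate early gene IER2, the dynein subunit gene DYNC1I2 and the neuropeptide gene UCN. RPL17, DVL1 and TIGD7 held 5, 6 and 7 reads and are named to complete the 11. IER2 had no 5' UTR cluster among its 5 clusters for ZC3H7A, 3 of which lay in the 3' UTR.

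On most members the 5' UTR was a minor site. The median member had 15.6% of its clusters there for ZC3H7A and 6.67% for ZC3H7B. At least 50% lay there on 229 of 1390 members (16.5%) and on 32 of 502 (6.37%). Among members with 4 or more clusters this held for 26 genes of ZC3H7A, including EEF1B2, RPL6, RPL17, BTF3, HSPE1, STK11, TLE1, UBE2M and REEP4, and for 8 of ZC3H7B, which were IGIP, RNF43, CENPV, C19orf48, HMGA1, MARVELD1, NSA2 and TXN. CENPV was the gene found in both groups.

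The rest of the clusters on these genes were examined in genes with at least 3 clusters. For ZC3H7A, coding sequence took 43.4% of these clusters on members and 45.2% on other genes, and the 3' UTR took 44.5% and 41.2%. The order in coding sequence turned among genes with 3 to 7 clusters, with 50.9% on members and 48.6% on others, and with 8 to 15, at 45.7% and 45.4%. It held with 16 or more, at 40.9% and 41.9%. For ZC3H7B, coding sequence took 35.2% on members and 29.2% on other genes, and the 3' UTR took 51.1% and 57.6%. The order in ZC3H7B held among genes with 16 or more clusters, at 34.5% against 27.6% in coding sequence.

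Start codon clusters, the nearest neighbours of those in the 5' UTR, were more frequent on members than on other genes for ZC3H7B at each number of clusters examined. The difference between the proteins was not tested. For ZC3H7B 119 of 483 members had a start codon cluster (24.6%, 20.9 to 28.7%), against 468 of 6190 other genes (7.56%, 6.91 to 8.25%). Among genes with 3 to 7 clusters the shares were 10.3% (4.24 to 20.1%) on members and 83 of 2374 (2.79 to 4.32%) on other genes, whose intervals touch. Among genes with 16 or more they were 31.4% (26.2 to 37.0%) and 12.1% (10.7 to 13.7%). Within that class members had a median of 29 clusters and 790 reads, against 23 and 494 on other genes, so they were not fully alike. For ZC3H7A 203 of 1198 members had one (16.9%, 14.9 to 19.2%), against 460 of 3763 (12.2%, 11.2 to 13.3%). At like numbers of clusters the ZC3H7A intervals overlapped in each class, with 9.34% and 8.27% at 3 to 7 clusters, 18.2% and 15.4% at 8 to 15, and 25.9% for both at 16 or more. C6orf62, with 3 for ZC3H7B, and AMD1, a polyamine synthesis enzyme with 2 in each library beside 1 5' UTR cluster in each, were among the members with repeated start codon clusters. The position of a cluster within the 5' UTR is not given, so whether these lay next to each other was not examined.

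**Figure D4:**
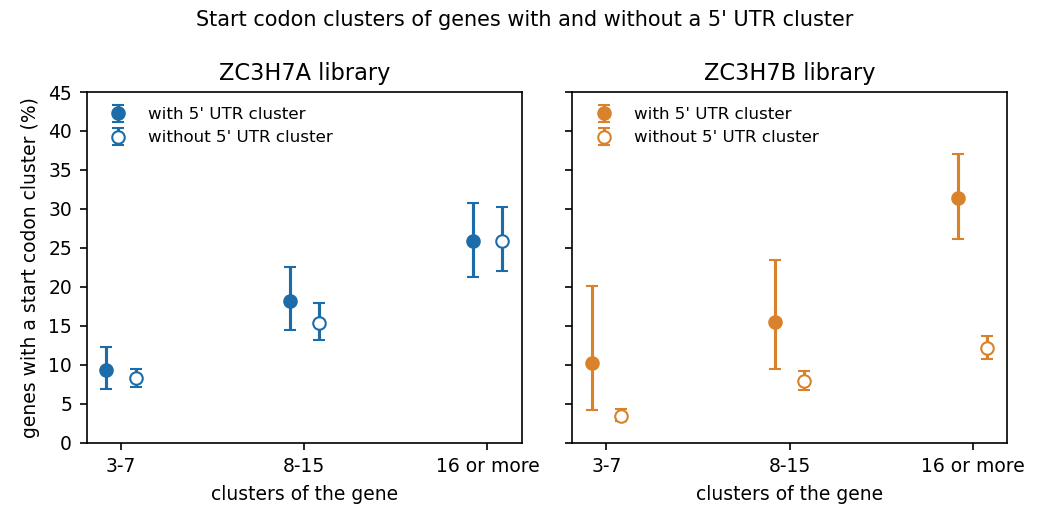
Share of genes with a start codon cluster in percent (vertical) for genes with (filled) and without (open) a 5' UTR cluster, by the number of clusters of the gene (horizontal), with exact 95% intervals. For ZC3H7B the filled points lie above the open ones, 31.4% against 12.1% at 16 or more clusters, and for ZC3H7A both stand at 25.9% there.

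Genes whose 5' UTR clusters were found for ZC3H7A alone were mostly listed for ZC3H7B too, by choice with all clusters in other regions. On the 1032 of them listed in both tables, ZC3H7A had 1265 of 11190 clusters in the 5' UTR (11.3%), with 37.4% coding and 40.2% in the 3' UTR. On the same genes ZC3H7B had 16003 clusters, 29.1% of them coding and 57.1% in the 3' UTR, and 125 of the 1032 genes had a start codon cluster. Over the whole ZC3H7B library coding sequence took 29.6% and the 3' UTR 55.8%, close to these shares, and 613 of 9163 genes had a start codon cluster. Over the whole ZC3H7A library coding sequence took 42.7% and the 3' UTR 39.8%. The median gene of this set had 12 clusters, 121 distinct reads and 214 reads for ZC3H7B, against 8, 36 and 396.5 for ZC3H7A. The ZC3H7B library holds more distinct reads in all, and after scaling the median log2 ratio of distinct reads on these genes was -0.48. The absence of 5' UTR clusters for ZC3H7B is how this set was chosen.

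Total reads were compared by the log2 ratio of ZC3H7B over ZC3H7A for genes listed in both tables and a sum of 20 reads or more, after setting the median over 7171 genes to 0. A gene was called where its whole exact interval lay beyond 2-fold, and the background over all genes was 18.0% higher for ZC3H7A and 18.3% higher for ZC3H7B. Of 1506 members compared, 353 (23.4%) were called higher for ZC3H7A and 160 (10.6%) for ZC3H7B, with a median log2 ratio of -0.25. The median was -0.37 for genes with 5' UTR clusters for ZC3H7A alone, -0.19 for the shared genes and 0.41 for those of ZC3H7B alone. Members were chosen on clusters in these same libraries, so this order partly follows from the choice and is no evidence of its own. With mean reads per cluster that median was 0.036, on the other side of 0.

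Among genes with 2 or more 5' UTR clusters and at least 100 reads summed, those farthest towards ZC3H7A included ribosomal protein, histone and chaperone genes. H1FX, a linker histone variant, stood at -5.85 (-6.81 to -5.04), with 974 reads for ZC3H7A and 12 for ZC3H7B. RPL17 and RPL6, of the large ribosomal subunit, stood at -5.51 (-7.14 to -4.27) and -4.35 (-5.07 to -3.71). XRCC3, of recombination repair, stood at -5.07, HSPE1, the mitochondrial co-chaperonin, at -4.78, and NACA, a subunit of the nascent polypeptide-associated complex, at -4.09. All 6 had 1 to 3 clusters in the ZC3H7B library, with 5 to 36 reads, so these ratios rest on few reads. RPL17 lies within the span of RPL17-C18orf32 and HSPE1 within that of HSPE1-MOB4, and XRCC3 partly overlaps KLC1, so their reads are uncertain too.

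At the other end RNF43 stood at 4.15 (3.22 to 5.24), C14orf132 at 4.06 (3.43 to 4.76) and SOGA3 at 3.77 (3.33 to 4.23). EPHA4, an ephrin receptor, stood at 3.54, ZFYVE20, an endosomal RAB effector, at 2.65 and TULP4 at 2.48. ZFYVE20 was the best covered of them, with 321 reads in 9 clusters for ZC3H7A and 1431 in 41 for ZC3H7B, of which 1 and 3 lay in the 5' UTR. RNF43, C14orf132 and EPHA4 each had 2 distinct reads for ZC3H7A, so their ratios rest on little. With distinct reads the intervals were wider, 1.19 to 6.16 for RNF43 and 2.19 to 7.12 for C14orf132. EPHA4 had an interval of 0.59 to 5.60 with distinct reads and was no longer called.

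Gene lists were read against the background of 16.9% of listed genes with a 5' UTR cluster for ZC3H7A and 5.48% for ZC3H7B. Cytosolic ribosomal protein genes had a 5' UTR cluster on 27 of 69 listed genes for ZC3H7A (39.1%, 27.6 to 51.6%) and on 6 of 65 for ZC3H7B (9.23%). The median listed gene of this list had 4 clusters for ZC3H7A, the same as all genes. All 6 genes of ZC3H7B were among the 27 of ZC3H7A. RPL17 had 3 of 4 clusters in the 5' UTR for ZC3H7A and its only cluster for ZC3H7B, RPL6 had 3 of 4 and 0 of 1, and RPL5 had 1 of 8 and 1 of 11. RPS4X had 1 of 9 in each library, with 2875 and 543 reads. Of 25 compared, 14 were called higher for ZC3H7A and 0 for ZC3H7B, against 23.4% and 10.6% of all 1506 members compared. All 27 were chosen through a 5' UTR cluster for ZC3H7A, so this order partly follows from the choice. Pseudogenes of ribosomal proteins share sequence with these genes, so their reads are uncertain.

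Translation factor genes had 5' UTR clusters on 13 of 49 genes for ZC3H7A (26.5%, 14.9 to 41.1%) and 6 of 46 for ZC3H7B (13.0%, 4.94 to 26.3%). Both intervals hold the background, and the median listed gene had 8 and 12 clusters, against 4 and 7 over all genes. EEF1B2, an exchange factor of elongation, had 4 of 7 clusters there for ZC3H7A and 1 of 5 for ZC3H7B. PABPC1 went the other way by number, with 2 of 8 and 4 of 22, and EIF4G2 and EIF5 had 2 and 1 each. Mitochondrial ribosomal protein genes stood at 6 of 66 (9.09%, 3.41 to 18.7%) and 1 of 63 (1.59%, 0.0402 to 8.53%), and both intervals hold the background. Among them MRPS16 had 2 of 6 and 0 of 11, and MRPL51 and MRPS7 had 1 for ZC3H7A and 0 for ZC3H7B.

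Splicing regulators of the hnRNP and SR families had the highest share of the larger lists for ZC3H7A, 19 of 34 genes (55.9%, 37.9 to 72.8%), and 13 of 35 for ZC3H7B (37.1%, 21.5 to 55.1%), with 11 genes in both. Their median gene had 14.5 and 17 clusters, more than the 4 and 7 over all genes, and number of clusters moves with this share. TRA2A had 3 of 10 and 2 of 17, TRA2B 1 of 17 and 2 of 23, HNRNPAB 3 of 15 and 1 of 13, and HNRNPH3 2 of 22 and 1 of 24. Chaperone genes stood at 16 of 39 (41.0%, 25.6 to 57.9%) and 12 of 39 (30.8%, 17.0 to 47.6%), with medians of 13 and 17 clusters. HSPH1, TCP1, DNAJC2 and HSPA5 each had 2 for ZC3H7A and 1 for ZC3H7B.

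Genes known for upstream open reading frames or the stress response had 5' UTR clusters on 8 of 18 genes for ZC3H7A (44.4%, 21.5 to 69.2%). For ZC3H7B it was 3 of 17 (17.6%, 3.80 to 43.4%), an interval that holds the background. Their median gene had 7.5 and 11 clusters, against 4 and 7 over all genes. Over all genes the ZC3H7A share was 19.2% with 4 to 7 clusters and 28.6% with 8 to 15, the latter inside the ZC3H7A interval. Besides PPP1R15B the 8 genes included MDM2, the ligase of p53, with 2 of 22 and 0 of 43. They also included CEBPG, a bZIP transcription factor, with 1 of 40 and 1 of 22, and SLC35A4 with 1 of 6 and 1 of 10. Polyamine genes stood at 3 of 8 and 3 of 7, with medians of 10.5 and 11 clusters. ODC1, the ornithine decarboxylase, had 2 of 15 and 0 of 18, its antizyme inhibitor AZIN1 had 2 of 14 and 2 of 35, AMD1 had 1 of 25 and 1 of 26, and SAT1, which acetylates polyamines, had 0 of 11 and 1 of 11. For ZC3H7A the interval of the polyamine list, 8.52 to 75.5%, spans the background, and for ZC3H7B it is 9.90 to 81.6%.

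Growth regulators known for long 5' UTRs stood at 11 of 23 (47.8%, 26.8 to 69.4%) and 3 of 24 (12.5%, 2.66 to 32.4%). Their median gene had 14 and 17 clusters, and over all genes with 8 to 15 clusters the ZC3H7A share was 28.6%, inside the interval of this list. The ZC3H7B interval of this list holds the background. JUN led this list, and CDKN1B, an inhibitor of cyclin-dependent kinases, had 3 of 18 and 1 of 16, while NRAS and CTNNB1 had 2 for ZC3H7A and 0 for ZC3H7B. JUN and MYC are also in the list of immediate early genes, with ATF3, BTG1 and ZFP36L1 at 1 for ZC3H7A and 0 for ZC3H7B. It stood at 4 of 14 (28.6%, 8.39 to 58.1%) and 3 of 18 (16.7%, 3.58 to 41.4%), and both intervals hold the background. Genes of the cap-binding 4EHP complex, decapping and deadenylation stood at 8 of 25 (14.9 to 53.5%) and 2 of 27 (7.41%, 0.910 to 24.3%), and both intervals hold the background. The 2 were DDX6 and CNOT4, a ubiquitin ligase subunit of the CCR4-NOT complex with 2 of 9 and 1 of 43, and CNOT1 and DCP2 had 1 for ZC3H7A and 0 for ZC3H7B.

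Ferritin genes, whose 5' UTRs carry the iron-responsive element, were the listed genes of that class for ZC3H7A. FTL had 1 of 4 clusters and FTH1 1 of 2 in the 5' UTR. With 2 of 2 genes the interval is 15.8 to 100%, which holds the background. For ZC3H7B 3 genes of the class were listed and none had a 5' UTR cluster, which allows a share of up to 70.8%. Replication-dependent histone genes stood at 3 of 32 (9.38%) and 4 of 24 (16.7%). HIST1H2BF had 1 in each library, HIST1H3D 1 for ZC3H7A, and HIST1H1E and HIST1H4E 1 for ZC3H7B. Histone genes share sequence, and reads are uncertain between copies.

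**Figure D5:**
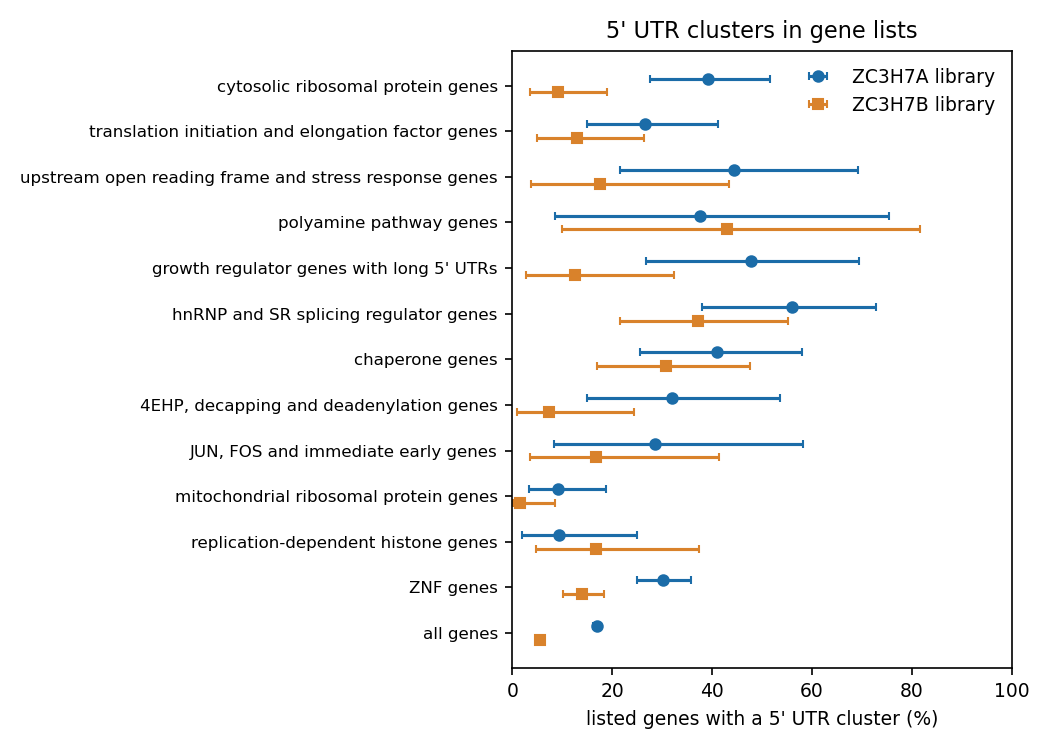
Share of listed genes with a 5' UTR cluster in percent (horizontal) in gene lists with at least 5 listed genes and over all genes, for ZC3H7A (circles) and ZC3H7B (squares), with exact 95% intervals. Cytosolic ribosomal protein genes stand at 39.1% and 9.23%, mitochondrial ones at 9.09% and 1.59%, and all genes at 16.9% and 5.48%.

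Zinc finger genes with ZNF symbols recur among the leading genes, and this list was added after the values were seen. A 5' UTR cluster was found on 89 of 295 listed ZNF genes for ZC3H7A (30.2%) and on 42 of 301 for ZC3H7B (14.0%, 10.2 to 18.4%), with 27 in both. Their median gene had 5 and 11 clusters. At least 2 were found on 29 (9.83%, against 3.73% of all genes) and 17 (5.65%, against 1.28%). Besides ZNF146, ZNF571 and ZNF664, ZNF260 had 3 of 15 clusters in the 5' UTR for ZC3H7A and 5 of 36 for ZC3H7B. Some ZNF genes share sequence or overlap each other, so reads can be uncertain between them.

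Base composition near the transcript start was compared because 4-thiouridine crosslinks only at uridine. The 50 bases after the RefSeq gene start were read on the sense strand for 1168 of 1382 coding members of ZC3H7A, 429 of 495 of ZC3H7B and 6286 of 7548 other listed coding genes. The median T content was 18% for ZC3H7A members, 20% for ZC3H7B members and 16% for other listed genes, with quartiles of 14 to 24%, 14 to 24% and 12 to 22%. The run TTTT was found in this window in 12.1% of the members of each protein, in 7.65% of other listed genes and in 9.04% of all 15843 coding genes of the table. Among ZC3H7A genes with 2 or more 5' UTR clusters it was found in 8.53%, close to that background. Among such genes of ZC3H7B it was found in 12 of 99 (12.1%). The median T content over all coding genes was 18%, as for ZC3H7A members. A start with C followed by 4 or more pyrimidines, as in terminal oligopyrimidine transcripts, was found in 7.11%, 7.69% and 5.33%. It was found in 66.7% of 57 cytosolic ribosomal protein genes matched, and the shares were not taken without these genes. A match is a description of the annotated start, which need not be the start used in these cells, and only 50 bases of the 5' UTR or of what follows it were read.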

How the data were processed

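The tools named in the submitters' processing notes are STAR 2.5.2a, Bowtie and cutadapt, and the build is hg19. What each did, the cluster caller, its thresholds and the strand setting were not given in the sources used. Each library has a table of genes. Its deposited counts, by the file headers, are clusters, reads and distinct reads summed over clusters, and clusters by region, with those at start and stop codons as other values. The deposited T-to-C fraction is a median over clusters, and its sum over clusters, a score, divided by the clusters gave the mean used here. Rows of the classes repeat, tRNA, srpRNA, scRNA and RNA, 277 of 8486 and 403 of 9566, were left out and held no 5' UTR cluster.

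Members, gene lists and rules for naming genes were chosen with earlier results of these data known. Named genes were the tagged genes, the 12 with the most 5' UTR clusters per library, the 15 with the most among those with 2 or more in both, the 8 with the most reads among genes with all clusters in the 5' UTR, the 6 highest and 6 lowest ratios, and up to 4 per list. A few genes that these rules would name are not reported here. No test was possible with 1 library per protein. Symbols were matched to RefSeq (GRCh38.p14) for biotypes, overlapping genes and start sequences. Named genes that overlap another gene also include RPL5, MDM2, AMD1, HNRNPAB, HNRNPH3, TCP1, DNAJC2, DCP2, CNOT1, FTH1, MRPS7, TIGD1, UCN and ZC3H7B. Their reads carry the same uncertainty. Python 3.11.15, pandas 2.3.3, numpy 2.4.6 and scipy 1.17.1 were used, with edgeR 4.0.16 for TMM scaling alone. The ratio and interval steps were tested on simulated data. The simulated reads were independent and held no copies, so this does not show how the intervals behave with copied reads.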

Additional observations from a re-analysis of the deposited data

How the results depend on the processing

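No paired analysis was possible because each protein has 1 library. The 5' UTR share stayed higher for ZC3H7A under each of the 6 alternatives tried. It moved to 3.79% for ZC3H7A when clusters without a named region were left out, and to 5.04% and 1.42% (a fold of 3.56) with start codon clusters included. With 2 or more 5' UTR clusters required, genes numbered 306 and 117 with 48 shared, 15.7% and 41.0% of the sets, and with 50 reads in both libraries the overlap was 23.6% and 59.7%. A single 5' UTR cluster of ZC3H7A held a median of 3 distinct reads in place of 25.5 reads. Among members with at least 10 clusters, coding sequence took 42.1% and the 3' UTR 46.2% of other clusters for ZC3H7A. The median log2 ratio of members was -0.35 with distinct reads and -0.35 with clusters, and 0.036 (reversed) with mean reads per cluster. Members called higher for ZC3H7A numbered 5 with clusters (6 of 2644 over all genes) and 30 with mean reads per cluster (140 of 7056). Those called higher for ZC3H7B numbered 3 with clusters (18 over all genes), 50 with mean reads per cluster (208) and 49 with distinct reads (415 of 6236), so calls were fewer over all genes as well. Fewer counts per gene enter both of these last measures. JUN stood at 0.27 by mean reads per cluster and ZC3H7B at -0.26 by clusters, both on the other side of 0, and the cause was not tested. Of the 37 named genes called by reads, 29 of 35 compared kept the call with distinct reads, 36 with TMM scaling, 8 of 36 with mean reads per cluster and 3 of 18 with clusters. Depth limits single genes, since members of ZC3H7A had a median of 38 distinct reads over all their clusters.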
